A study of Mus musculus with 6 samples.

Results

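The aminoacyl-tRNA synthetases were followed in RNA-seq of hematopoietic stem cells (HSCs) sorted from mouse bone marrow. The members are the enzymes that join an amino acid to its tRNA, chosen by gene name from the known list of the family, 36 of the 21878 genes listed in each library. Of these, 20 encode cytosolic enzymes and 16 mitochondrial ones. All 36 were found, under their older symbols (Aars for Aars1, and so on), and all passed the filter on low values (1 FPKM or more in 3 or more libraries), which 10447 genes passed. FPKM is a fragment count corrected for transcript length and sequencing depth.

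The HSCs were sorted as CD34-Flk2-Lineage-Sca1+c-Kit+ cells from wild-type mice, on the C57BL/6 strain by the study's methods. The control group is 3 libraries of vehicle-treated mice. The IGF1 group is 3 libraries of mice given recombinant mouse IGF1 under the skin, at 200 µg/kg and as 1 dose, and sorted at day 1. IGF1 is a growth factor that acts through a receptor tyrosine kinase upstream of PI3K, AKT and mTOR. The methods name males for the transgenic mice and their littermates. For the mice used here, the age, the sex and whether a library pooled several mice are not given in the sources used here. P-values therefore measure the spread between these libraries, which may be in part technical. The labels conflict, because the extraction text speaks of irradiation where the treatment label and the series design name IGF1, and the treatment label was followed.

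Each amino acid has its own synthetase in the cytosol, and most have a second one, encoded by another nuclear gene, that works in mitochondria. Kars and Gars serve both places from 1 gene, and Eprs joins the glutamate and the proline enzyme in 1 protein. Several cytosolic enzymes are held in a multi-synthetase complex with the scaffold proteins Aimp1, Aimp2 and Eef1e1. Many cytosolic synthetase genes are induced by ATF4, the transcription factor of the amino acid response, through a C/EBP-ATF response element (CARE), and MYC binds E-boxes near several of them. Both ATF4 and MYC can act downstream of mTOR. HSCs are known for a low rate of protein synthesis.

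The promoter stretches below show where the CARE letters occur in the cytosolic genes, since these genes carried the largest changes. The windows run from 250 bases before to 50 bases after the RefSeq start (build GRCm38.p6), and existed for 12 of the 20 cytosolic and 14 of the 16 mitochondrial genes. TGATGNAA was searched on both strands, so its reverse complement TTNCATCA counts too. Capitals mark the match, and each stretch is written 5′ to 3′ on the strand of the gene. Matches before the start are shown with up to 36 bases on either side.
Aars, chr8:111033694-111033773, + strand, match 112 bases before the start: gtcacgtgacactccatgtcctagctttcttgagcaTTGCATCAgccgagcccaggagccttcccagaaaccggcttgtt
Aars, chr8:111033841-111033868, + strand, match 9 bases after the start: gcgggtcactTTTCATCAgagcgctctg
Gars, chr6:55037935-55038000, + strand, match 30 bases before the start: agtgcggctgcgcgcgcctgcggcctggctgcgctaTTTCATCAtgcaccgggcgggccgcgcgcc
Tars, chr15:11399659-11399709, - strand, match 15 bases before the start: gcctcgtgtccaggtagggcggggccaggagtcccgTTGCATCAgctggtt
Iars, chr13:49682127-49682154, + strand, match 7 bases after the start: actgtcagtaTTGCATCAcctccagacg
Yars, chr4:129189896-129189923, + strand, match 3 bases after the start: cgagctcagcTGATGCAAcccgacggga

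These 5 genes are 41.7% of the 12 cytosolic genes with a window. TGATGNAA was in 0 of the 14 mitochondrial windows and in 4.51% of 27025 genes with a window. All 5 belong to the 7 genes with a window among the synthetases known as ATF4 targets, and 4 of 16 other ATF4 pathway genes with a window had the letters too. The palindromic E-box CACGTG, whose matches overlapped none of the CARE matches, was in 4 of the 12 cytosolic windows (Aars, Farsb, Iars and Tars), in 1 of the 14 mitochondrial windows (Ears2) and in 8.09% of all genes. The E-box of Iars lay 69 bases before the start, in a stretch shown here because Iars had the lowest log2 fold change of the family.
Iars E-box, chr13:49682025-49682102, + strand: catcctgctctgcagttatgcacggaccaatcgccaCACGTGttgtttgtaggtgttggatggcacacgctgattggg
A match is a description of letters and was not taken as a binding site.

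The libraries did not fall cleanly into their groups. Whole reads could be recovered from the steps of the deposited values and came to 15876084, 11426057 and 15970357 on listed genes in the controls (replicates 1 to 3) and to between 11203739 and 12752831 in the IGF1 libraries. Chi-squared per gene, which is near 1 for repeat counts of the same RNA, was 1.517 between control replicates 1 and 3 and 1.688 to 1.894 between IGF1 libraries. Control replicate 2 stood at 228.786 and 230.588 from the other controls and at 24.61 to 27.96 from the IGF1 libraries. The counts, medians and named genes that the results turn on are therefore given with and without control replicate 2. Without it, 2 libraries remain in the control group, and their closeness makes the standard errors small.

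The sort was checked against marker genes. Of 12 HSC markers 11 could be tested, with a summed level of 528 to 732 FPKM in controls against 467 to 484 FPKM in IGF1 libraries, and Procr, Hlf and Meis1 were present in every library. Of these 11, 9 were below 0, with a median log2 fold change of -0.84, and Mycn was called lower by limma (-1.86, adjusted p = 0.0443). Ly6a made up the largest part of the sum, with 219, 615 and 231 FPKM in the controls and 374 to 387 FPKM with IGF1. Kit, part of the sort gate, had 105, 31.4 and 104 FPKM in the controls against 24.2 to 24.6 FPKM in the IGF1 libraries. In the neutrophil and monocyte list 6 of the 8 genes tested were below 0, with a median log2 fold change of -1.60, and 4 granule and alarmin genes were called lower by limma. These were Ngp (-3.39, adjusted p = 0.0412), Camp (-2.32, 0.0285), S100a9 (-2.25, 0.0285) and S100a8 (-1.90, 0.0287). Elane and Prtn3, which mark early granulocyte precursors, were above 0 (2.03 and 1.14) and were not called. Without control replicate 2 both were called higher (2.90 and 1.62). The sum over the 10 genes, carried by Mpo, Prtn3 and Elane, was 2810, 3960 and 2860 FPKM in controls against 4140 to 4170 FPKM in IGF1 libraries. B cell markers summed to 111, 420 and 110 FPKM against 388 to 405 FPKM. Megakaryocyte and platelet markers summed to 53.1 to 75.8 FPKM in controls against 94.5 to 104 FPKM with IGF1, and erythroid markers to 16.0 to 70.3 FPKM and 23.9 to 28.5 FPKM. Of the 6 T and NK cell markers 2 could be tested. Klrd1 was called higher, from 0.397, 1.31 and 0.691 FPKM in the controls to between 5.37 and 6.25 FPKM (log2 fold change 1.95, adjusted p = 0.0285 from limma), and Nkg7, the most abundant, was not called (0.74, adjusted p = 0.112), while Cd3e stayed at or below 0.206 FPKM in all 6 libraries. The stromal and endothelial markers Lepr and Cdh5 were at 0 in 3 or more libraries, and that list summed to 7.16 to 12.4 FPKM. The summed levels of the neutrophil and B cell lists set control replicates 1 and 3 apart from the other 4 libraries, while in Klrd1, Camp and S100a9 control replicate 2 stayed nearer to its own group. The part of these markers in the results was not tested. The marker genes named here were picked with their values in view. In sorted bulk cells, fewer cells of a type and less RNA per cell cannot be told apart.

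By summed level, IGF1 libraries held less cytosolic synthetase mRNA than controls, while the mitochondrial sums overlapped. The FPKM of the 20 cytosolic genes summed to 1565, 762 and 1575 in the controls (replicates 1 to 3) and to 626, 628 and 616 in the IGF1 libraries. All 3 controls were above all IGF1 libraries, with control replicate 2 the nearest to them. The 16 mitochondrial genes summed to 316, 300 and 316 FPKM in the controls and to 291, 307 and 306 FPKM with IGF1. Control replicate 2 lay within the IGF1 range. Lars2 made up the largest share of that sum. Without Lars2 the other 15 genes summed to 262, 181 and 262 FPKM in controls and to 164, 175 and 169 FPKM with IGF1, and the groups no longer overlapped.

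**Figure D1:**
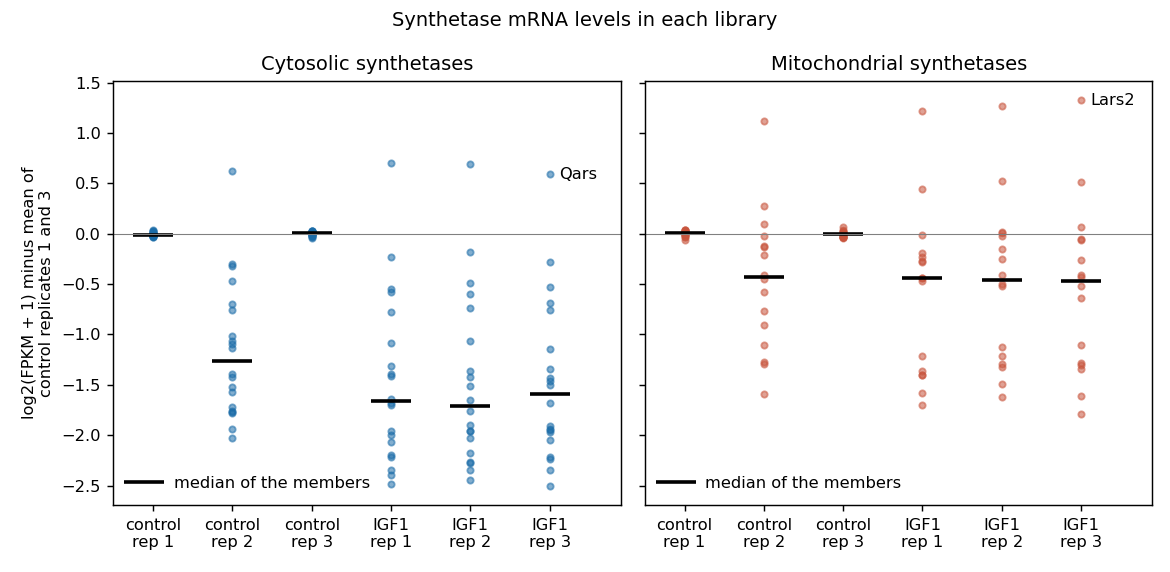
Level of each member in each library on the log2(FPKM + 1) scale, minus the mean of control replicates 1 and 3. Each point is 1 gene (20 cytosolic, left, and 16 mitochondrial, right) and the bar is the median of the members. Control replicate 2 lies with the IGF1 libraries rather than with the other controls, and Qars and Lars2 stand above the rest in these 4 libraries.

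Levels in the control group differed widely between members. Taken as FPKM, the values are scaled to length, so genes may be compared. The control means ran from 21.8 FPKM (Cars) to 157 FPKM (Farsa) among cytosolic genes, with a median of 47.9 FPKM, and from 2.20 FPKM (Wars2) to 75.6 FPKM (Lars2) among mitochondrial genes, with a median of 16.4 FPKM. With IGF1 the medians were 25.5 and 8.39 FPKM. The fewest reads behind any value were 102, for Pars2 in control replicate 2, and the most 7257, for Lars2 in IGF1 replicate 3.

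In the limma fit over all genes tested, 4 of the 36 members were called lower in IGF1 libraries, which asked for more than a 2-fold difference together with an adjusted p (Benjamini-Hochberg) below 0.05, and 0 were called higher. The called genes were Gars, Iars, Hars2 and Iars2. Over all genes tested, 4.63% were called lower and 1.98% higher. By the adjusted p alone 7 members were lower (Farsa, Hars and Kars besides these 4), against 14.1% of all genes. By the fold alone 18 members were lower by over 2-fold, 14 of them cytosolic, against 10.9% of all genes. The other 14 of these 18 missed the adjusted p, with values of 0.0507 to 0.105. At an unadjusted p under 0.05 there were 24 members, against 53.4% of all genes. The groups did not overlap in 26 members, against 59.4% of all genes.

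Control replicate 2 set the number of calls. Without it 21 members were called lower and 1, Lars2, higher, where 20.5% and 12.4% of 10299 genes tested were called lower and higher. By the adjusted p alone, 5494 of these 10299 genes were lower and 3620 higher in that fit, and 30 and 3 of the members. Among genes that differed by over 0.5 on the log2(FPKM + 1) scale between IGF1 libraries and control replicates 1 and 3, control replicate 2 had gone a median of 78.3% of the way to the IGF1 mean over 19 cytosolic members, 85.4% over 8 mitochondrial members and 80.6% over 6619 genes tested. Farsa (48.3% of the way) and Iars2 (57.7%) stayed nearest to the other controls among these members, and Vars (146%) and Pars2 (111%) lay past the IGF1 mean.

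**Figure D2:**
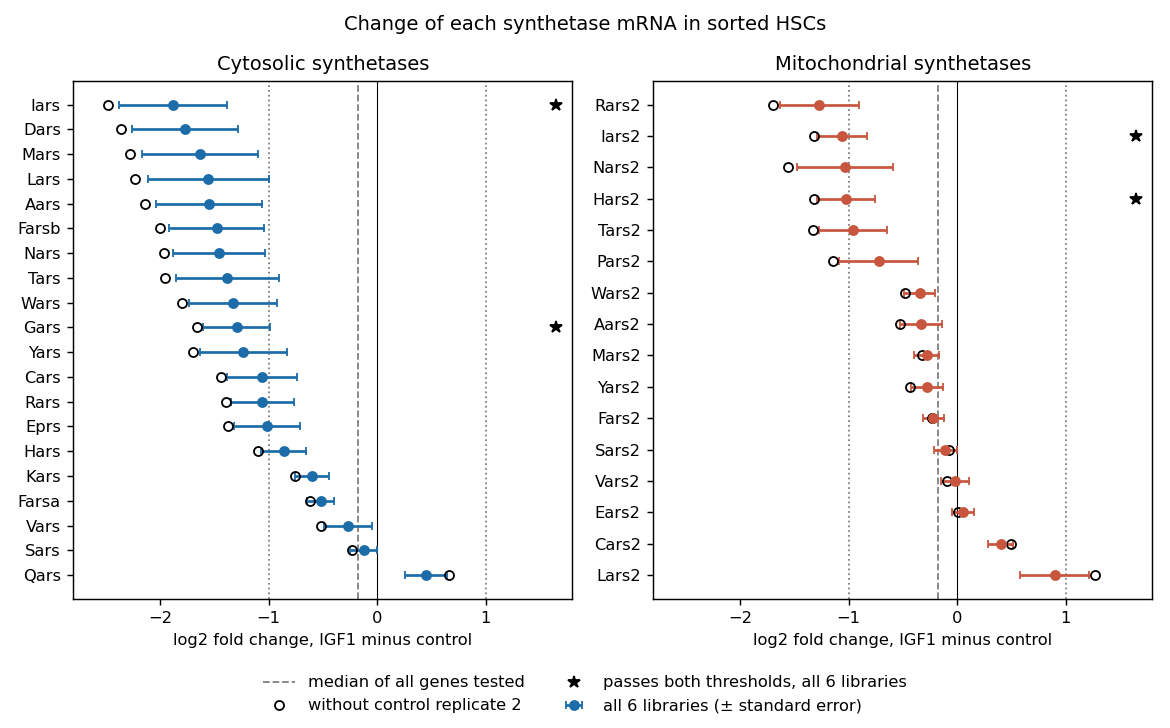
Log2 fold change (IGF1 minus control, log2(FPKM + 1) scale) of each cytosolic (left) and mitochondrial (right) member. Filled points are all 6 libraries with the standard error, open circles are the values without control replicate 2, stars mark members past both thresholds, the dashed line is the median of all genes tested (-0.18) and dotted lines are at a 2-fold change. All cytosolic genes but Qars lie below 0 on the deposited scale (Sars and Vars turn under other scalings), while the mitochondrial genes spread on both sides of the dashed line.

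Of the 20 cytosolic genes 19 had a log2 fold change below 0 (17 to 18 under the other scalings and trend removal, where Sars and, in 1 of them, Vars turned), and their median was -1.26, where the median of all genes tested was -0.18. Both medians were lower, -1.68 and -0.24, once control replicate 2 was left out, and 15 of the 20 were called lower (20.5% of all genes). Removal of the trends with transcript length and GC content left a cytosolic median of -0.93 against -0.04 over all genes. The other scalings tried gave -1.03, -1.02 and -0.94, against -0.02, 0.04 and 0.14 over all genes.

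Iars, the isoleucyl-tRNA synthetase and a subunit of the multi-synthetase complex, had 58.0, 16.4 and 59.8 FPKM in the controls (replicates 1 to 3) against 9.70, 10 and 9.55 FPKM with IGF1. Every IGF1 library was below every control, and control replicate 2 was the lowest control by a wide margin. The log2 fold change was -1.88 (standard error 0.49, adjusted p = 0.0481 from limma), 3.69-fold lower, and without control replicate 2 it was -2.48. Iars lies at chr13:49682100-49734267 (GRCm38, + strand), and its promoter held both the CARE letters and an E-box.

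Gars, the glycyl-tRNA synthetase that serves cytosol and mitochondria, had 93.1, 43.9 and 97.0 FPKM in the controls against 29.8, 29.5 and 28.9 FPKM with IGF1. With IGF1 the values lay within 1 FPKM of one another and below all controls. The log2 fold change was -1.29 (standard error 0.31, adjusted p = 0.0441 from limma), and -1.66 without control replicate 2. Gars lies at chr6:55038007-55079500 on the + strand. Gars and Iars were called under quantile and 75th percentile scaling and with the length and GC trends removed. Neither was called under median centring (Gars at -0.97, Iars at an adjusted p of 0.0504), with no filter (adjusted p of 0.0523 and 0.0591) or with the replicate block (0.0851 for both), and Iars was not with a pseudocount of 5 (0.0525).

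Dars, the aspartyl-tRNA synthetase of the complex, had 169, 49.0 and 171 FPKM in the controls against 31.5, 32.6 and 32.7 FPKM with IGF1. Its groups did not overlap, but the distance between the controls was larger than that between control replicate 2 and the IGF1 libraries. The log2 fold change of -1.77 (standard error 0.49) had an adjusted p of 0.0514 from limma, just short of the threshold.

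Mars, the methionyl enzyme, which also charges the initiator tRNA, had 54.7, 13.5 and 54.1 FPKM in the controls against 9.90, 10.5 and 10.8 FPKM. Its log2 fold change was -1.64 (adjusted p = 0.0631 from limma). The gene overlaps Ddit3 on the other strand, and the strand setting of the counting is not given in the sources used here.

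Lars, the leucyl enzyme, which is also known as a leucine sensor upstream of mTORC1, had 53.7, 12.3 and 53.0 FPKM in the controls against 10.7, 10.2 and 10.7 FPKM. Its log2 fold change was -1.56 (adjusted p = 0.0740 from limma). Control replicate 2 had gone 90.9% of the way to the IGF1 mean. Its adjusted p was higher than that of Gars although its fold was larger.

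Aars, the alanyl enzyme, had 34.3, 9.16 and 32.3 FPKM in the controls against 6.49, 6.60 and 7.29 FPKM, a log2 fold change of -1.55 (adjusted p = 0.0597 from limma). Like Iars, Dars, Mars and Lars it was called lower once control replicate 2 was left out, with a log2 fold change of -2.14. Its promoter held the CARE letters at 2 places. For Dars, Mars and Lars the values without that library were -2.36, -2.28 and -2.23.

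The most and the least abundant cytosolic members were Farsa and Cars. Farsa, the catalytic subunit of the phenylalanyl enzyme, had 171, 136 and 165 FPKM in the controls against 112, 111 and 104 FPKM with IGF1, and its log2 fold change was -0.52 (adjusted p = 0.0446 from limma), past the adjusted p but not the fold. Under 75th percentile scaling, median centring and trend removal Farsa was at -0.27, -0.20 and -0.08, with adjusted p of 0.0897, 0.174 and 0.503. Quantile normalization gave -0.62 with an adjusted p of 0.0546. Farsb, the other subunit of the same heterotetramer, had 80.9, 26.7 and 82.2 FPKM against 18.7, 19.2 and 21 FPKM, with a log2 fold change of -1.48 (adjusted p = 0.0553). The subunits of this enzyme had unlike values, and the difference was not tested. Cars, the cysteinyl enzyme, had 26.5, 11.7 and 27.3 FPKM against 9.66, 8.82 and 9.31 FPKM (log2 fold change -1.07, adjusted p = 0.0567). With control replicate 2 left out, Farsa, Farsb and Cars had log2 fold changes of -0.62, -2.00 and -1.44.

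Of the remaining cytosolic genes, Eprs, Nars, Rars, Tars, Wars and Yars had log2 fold changes between -1.46 and -1.02 with adjusted p from 0.0507 to 0.0689, and none of their groups overlapped. All 6 were called lower once control replicate 2 was left out, at -1.97 to -1.37. Hars, the histidyl enzyme, and Kars, the lysyl enzyme of both compartments, had smaller changes of -0.86 and -0.60 that passed the adjusted p (0.0446 and 0.0476 from limma) but not the fold. Hars missed the adjusted p under quantile normalization (0.0512) and trend removal (0.0511). Kars missed it under both of these and under the other scalings (0.06 to 0.0982), with values of -0.60 to -0.19. Leaving out control replicate 2 gave -1.10 for Hars, which was then called lower, and -0.76 for Kars. Kars was also among the most abundant members, with 126, 89.8 and 124 FPKM in the controls against 72.4, 74.4 and 73.7 FPKM with IGF1.

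Sars, Vars and Qars had the highest values of the cytosolic set. Sars, the seryl enzyme, had 35.4, 27.8 and 34.5 FPKM in the controls against 29.7, 30.8 and 28.5 FPKM with IGF1, so its groups overlapped (log2 fold change -0.12, adjusted p = 0.421 from limma). Vars, the valyl enzyme, had 89.1, 52.8 and 90.9 FPKM against 61.2, 63.7 and 62.3 FPKM, with control replicate 2 the lowest of all 6 libraries (-0.27, adjusted p = 0.338). The signs of both depend on the scaling, as Sars was above 0 under quantile, 75th percentile and median centring, and Vars under median centring. With control replicate 2 left out, both passed the adjusted p (8.39e-04 and 1.87e-07) but not the fold (-0.23 and -0.52). Most genes tested passed the adjusted p in that fit.

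Qars, the glutaminyl enzyme of the multi-synthetase complex, was the only cytosolic member with a value above 0 on the deposited scale, and stayed above 0 under every alternative (0.35 to 0.83). It had 28.8, 45.0 and 28.8 FPKM in the controls against 47.6, 47.0 and 43.9 FPKM with IGF1. Control replicate 2 lay inside the IGF1 range, so the groups overlapped, and the log2 fold change of 0.45 had an adjusted p of 0.102 from limma. Leaving that library out gave 0.66 with an adjusted p of 2.35e-07, past the adjusted p, as most genes tested then were, but not the fold. Qars, Sars and Vars fall outside the rule for genes shown in full and were picked with their values in view, as were Farsb and Kars.

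Values inside and outside the physical complex were close. The 8 enzymes of the multi-synthetase complex had a median log2 fold change of -1.31 (7 of 8 below 0, range -1.88 to 0.45), and the 12 other cytosolic enzymes a median of -1.26 (12 of 12 below 0 before Sars and Vars turn under other scalings). These medians were, with control replicate 2 left out, -1.82 and -1.68. By structural class, the class I enzymes had a median of -1.02 with 15 of 19 below 0, and the class II enzymes a median of -0.99 with 18 of 18 below 0, Eprs counting in both (-1.32 and -1.33 without control replicate 2). Under the other scalings and trend removal 11 to 14 of 19 and 15 to 16 of 18 were below 0. The class medians were then -0.77 to -0.63 and -0.74 to -0.56.

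The 12 synthetases known as ATF4 targets had a median of -1.36, with 12 of 12 below 0 (11 under the other scalings and trend removal, where Sars turned) and 2 called (Gars and Iars), and the 8 other cytosolic enzymes had a median of -0.73, with 7 of 8 below 0 and 0 called by limma (6 at an unadjusted p under 0.05). The medians without control replicate 2 were -1.88 and -0.93, with 11 of 12 and 4 of 8 called lower (20.5% of all genes). The ATF4 list came from general knowledge of the pathway and the difference between the lists was not tested. Dars (-1.77) and Farsb (-1.48), which are not on it, had values below its median, and Sars (-0.12), which is on it, had the value nearest to 0. The 5 genes with CARE letters (Aars, Gars, Iars, Tars and Yars) had values from -1.88 to -1.24. The other cytosolic genes with a window had values from -1.77 (Dars) to 0.45 (Qars), and the difference was not tested.

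The median of the mitochondrial synthetases lay nearer to that of all genes than the cytosolic median did. Of the 16 genes 13 had a log2 fold change below 0 (8 to 10 under the other scalings and trend removal), the median was -0.31 and the range ran from -1.27 (Rars2) to 0.90 (Lars2), with 9 genes whose groups did not overlap (against 59.4% of all genes). The median without control replicate 2 was -0.46, and 6 were called lower and 1 higher, against 20.5% and 12.4% of all genes. The median moved with the scaling, to -0.06 under quantile normalization, -0.08 under 75th percentile scaling and 0.01 under median centring, in step with the median of all genes.

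The lowest values of the mitochondrial set were those of Rars2, Iars2, Nars2, Hars2 and Tars2. Iars2, the isoleucyl enzyme at chr1:185284726-185329396 (- strand), had 22.2, 12.7 and 22.4 FPKM in the controls against 7.81, 9.05 and 8.18 FPKM with IGF1. All controls were above all IGF1 libraries, and the log2 fold change was -1.06 (standard error 0.23, adjusted p = 0.0410 from limma), the smallest adjusted p of the family. Without control replicate 2 it was -1.32. Its change was short of 2-fold under quantile normalization (-0.75), 75th percentile scaling (-0.83), median centring (-0.74), trend removal (-0.78) and a pseudocount of 5 (-0.82), so the call was lost there and under the replicate block.

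Hars2, the histidyl enzyme, had 18.9, 9.89 and 19.9 FPKM in the controls against 6.73, 7.34 and 7.37 FPKM with IGF1. Its groups did not overlap, and the log2 fold change was -1.02 (standard error 0.27, adjusted p = 0.0479 from limma), only just past the fold threshold. The call was lost under the same scalings, trend removal and pseudocount as for Iars2, with log2 fold changes of -0.79 to -0.50. It was also lost with no filter (adjusted p of 0.0585) and with the replicate block (0.0851), at -1.02 in both. Hars2 and Hars start next to each other on opposite strands and overlap at their starts, so reads from there cannot be assigned without the strand setting.

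Rars2, the arginyl enzyme, had the lowest value of the set, with 36.3, 13.9 and 34.7 FPKM in the controls against 10.2, 10.9 and 9.57 FPKM, and its log2 fold change of -1.27 had an adjusted p of 0.0535 from limma. Nars2, the asparaginyl enzyme, had 11.7, 3.26 and 11.9 FPKM in the controls against 3.29, 3.55 and 3.18 FPKM with IGF1. Here control replicate 2 lay inside the IGF1 range, and the log2 fold change of -1.03 had an adjusted p of 0.105. Tars2, the threonyl enzyme, had 28.4, 13 and 29.7 FPKM against 10.7, 11.0 and 11.2 FPKM (log2 fold change -0.96, adjusted p = 0.0627). Rars2, Nars2 and Tars2 were called lower without control replicate 2, at -1.70, -1.56 and -1.33, as was Hars2 (-1.32). Pars2, the prolyl enzyme, had a log2 fold change of -0.72 (adjusted p = 0.144 from limma) with overlapping groups, and was called lower at -1.15 without control replicate 2.

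Lars2, the mitochondrial leucyl enzyme and the most abundant of its set, went the other way. It had 54.2, 119 and 54.0 FPKM in the controls against 127, 132 and 137 FPKM with IGF1. Control replicate 2 was close below the IGF1 libraries and the groups did not overlap. The log2 fold change was 0.90 (standard error 0.32, adjusted p = 0.0718 from limma) and missed both thresholds. Without control replicate 2 it was 1.27 (adjusted p = 5.58e-10), and Lars2 was the only member called higher. Cars2, the cysteinyl enzyme, was the other mitochondrial gene with all IGF1 libraries above all controls, with 28.1, 34.7 and 28.7 FPKM against 39.0, 41.3 and 41.0 FPKM (log2 fold change 0.40, adjusted p = 0.0534). Without control replicate 2 its value was 0.50 (adjusted p = 1.43e-06), past the adjusted p, as most genes tested then were, but not the fold. Under the other scalings and trend removal Cars2 had values of 0.65 to 0.90. Of these settings it passed the adjusted p only under quantile normalization (0.66, 0.0496 from limma). Cars2 was picked with its values in view.

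The remaining mitochondrial genes lay close to the median of all genes. Aars2, Ears2, Fars2, Mars2, Sars2, Vars2, Wars2 and Yars2 had log2 fold changes between -0.35 and 0.05, and their adjusted p from limma ran from 0.0920 to 0.891. With control replicate 2 left out their values lay between -0.53 and 0.01, and 0 were called. Wars2, the tryptophanyl enzyme and the least abundant member, had 2.33, 1.63 and 2.65 FPKM in the controls against 1.58, 1.46 and 1.44 FPKM with IGF1, where the scale of log2(FPKM + 1) understates the change. Ears2, the glutamyl enzyme, had 2.73, 2.32 and 2.55 FPKM against 2.60, 2.58 and 2.82 FPKM, with overlap.

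The ratio of the cytosolic to the mitochondrial enzyme for the same amino acid does not move when a whole library is rescaled by a factor. It was taken for 15 pairs, in each library, as FPKM over FPKM. In 13 of the 15 the ratio was lower in IGF1 libraries, with a median change of -0.83 on the log2 scale, and in 8 of these 13 the groups did not overlap. For single genes the groups did not overlap in 59.4% of all genes tested, and ratios of other gene pairs were not taken. In 2 pairs, histidine and arginine, it was higher, with overlap. An exact permutation test of 3 libraries against 3 cannot go below p = 0.1, 2-sided, so no pair was tested. Without control replicate 2, 13 ratios were again lower, 12 of them without overlap, with a median change of -1.14. The 2 higher ratios did not overlap then either. For single genes the groups did not overlap in 9464 of 10299 genes in that fit.

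Leucine had the widest swing. Lars over Lars2 was 0.991, 0.104 and 0.981 in the controls (replicates 1 to 3) and 0.0846, 0.0775 and 0.0782 in the IGF1 libraries. The enzymes had nearly equal levels in control replicates 1 and 3, and the mitochondrial mRNA was the larger by far in the other 4 libraries. The log2 ratio changed by -2.54, and by -3.62 without control replicate 2, with a standard deviation among controls of 1.88. Cysteine followed, with Cars over Cars2 at 0.942, 0.338 and 0.950 in the controls and 0.247, 0.213 and 0.227 with IGF1, a change of -1.55 (-2.05 without control replicate 2).

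For isoleucine both enzymes were called lower, and the ratio of Iars to Iars2 still went from 2.62, 1.29 and 2.67 to 1.24, 1.11 and 1.17, a change of -0.83 (-1.18 without control replicate 2). For histidine both enzymes were past the adjusted p, with Hars over Hars2 at 4, 4.66 and 3.80 in the controls and 5.22, 4.84 and 4.57 with IGF1. For serine neither enzyme passed the test, and Sars over Sars2 was 2.16, 1.59 and 2.15 in the controls and 2.10, 1.88 and 1.84 with IGF1. The methionine ratio had a large mean change of -1.41 (-2.03 without control replicate 2), but control replicate 2, at 1.37, lay within the IGF1 range of 1.14 to 1.39.

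**Figure D3:**
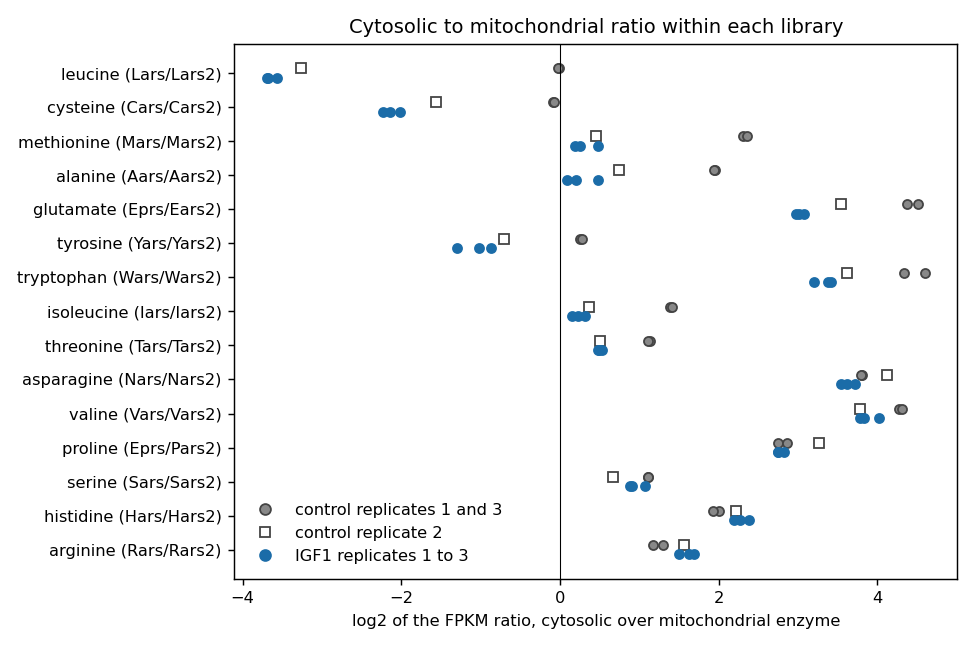
Log2 of the FPKM of the cytosolic over the mitochondrial enzyme for 15 amino acids, in each of the 6 libraries. Grey circles are control replicates 1 and 3, open squares control replicate 2 and blue circles the 3 IGF1 libraries, and the pairs are sorted by the change of the mean. The IGF1 points lie to the left of all control points in 8 of the 15 pairs, and the mean changed most for leucine (-2.54).

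Over all genes tested with known transcript length and GC content (96.7% of them, from the longest GENCODE transcript), the log2 fold change had a Spearman correlation of 0.39 with GC content and of -0.21 with length. These are correlations across genes, which share the same 6 libraries. Over the 36 members, which all had values, the correlations were 0.28 and 0.16. The members had a median GC content of 49.8% and a median length of 3338 bases, where all genes had 49.7% and 3245 bases. With both trends removed, the difference between the cytosolic and the mitochondrial median was -0.65 in place of -0.96, and Gars and Iars were the members called.

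Other genes of cytosolic tRNA charging moved in both directions by value. Of 12 such genes 7 were below 0 and 5 above (4 and 8 under 75th percentile scaling and median centring), the median was -0.04 (0.20 and 0.28), and 0 were called by limma (3 at an unadjusted p under 0.05), while 3 were called lower and 2 higher with control replicate 2 left out. In that fit 20.5% of all genes were called lower and 12.4% higher. The complex scaffolds went different ways. Aimp1 had 52.9, 113 and 50.7 FPKM in the controls against 106, 113 and 111 FPKM with IGF1 (log2 fold change 0.70, adjusted p = 0.115). Aimp2 stayed between 129 and 141 FPKM in all 6 libraries. Eef1e1 had 102, 106 and 103 FPKM against 78.4, 79.5 and 79.9 FPKM, with control replicate 2 among the controls, and passed the adjusted p (0.0423) but not the fold (-0.39). Eef1a1, the elongation factor that carries charged tRNA to the ribosome, had 1260, 2640 and 1290 FPKM against 2560, 2550 and 2680 FPKM.

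The largest changes of that list were those of Sepsecs, which completes selenocysteine on its tRNA, and Trnt1, which adds the CCA end to tRNAs. Sepsecs had 7.06, 0.776 and 7.45 FPKM in the controls against 0.753, 1.15 and 1.53 FPKM with IGF1, so that control replicate 2 lay inside the IGF1 range (log2 fold change -1.22, adjusted p = 0.148 from limma). Trnt1 had 16.2, 7.45 and 15.2 FPKM against 5.33, 5.87 and 5.62 FPKM without overlap (-1.01, adjusted p = 0.0526). Both were called lower with control replicate 2 left out, at -1.96 and -1.34. Aimp1, Aimp2, Eef1e1 and Eef1a1 were picked with their values in view.

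All 5 other genes of mitochondrial tRNA charging described here were below 0 on the deposited scale (2 to 4 of them under the other scalings and trend removal). Their median was -0.30, and -0.39 with control replicate 2 left out. By limma 0 of them were called, and 3 had an unadjusted p under 0.05. Gatc and Qrsl1, subunits of the amidotransferase that makes glutaminyl-tRNA in mitochondria, passed the adjusted p (0.0490 and 0.0363) but not the fold (-0.70 and -0.66). Gatb, the third subunit, had a value of -0.10 and an adjusted p of 0.605. Gatb was picked with its values in view.

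**Figure D4:**
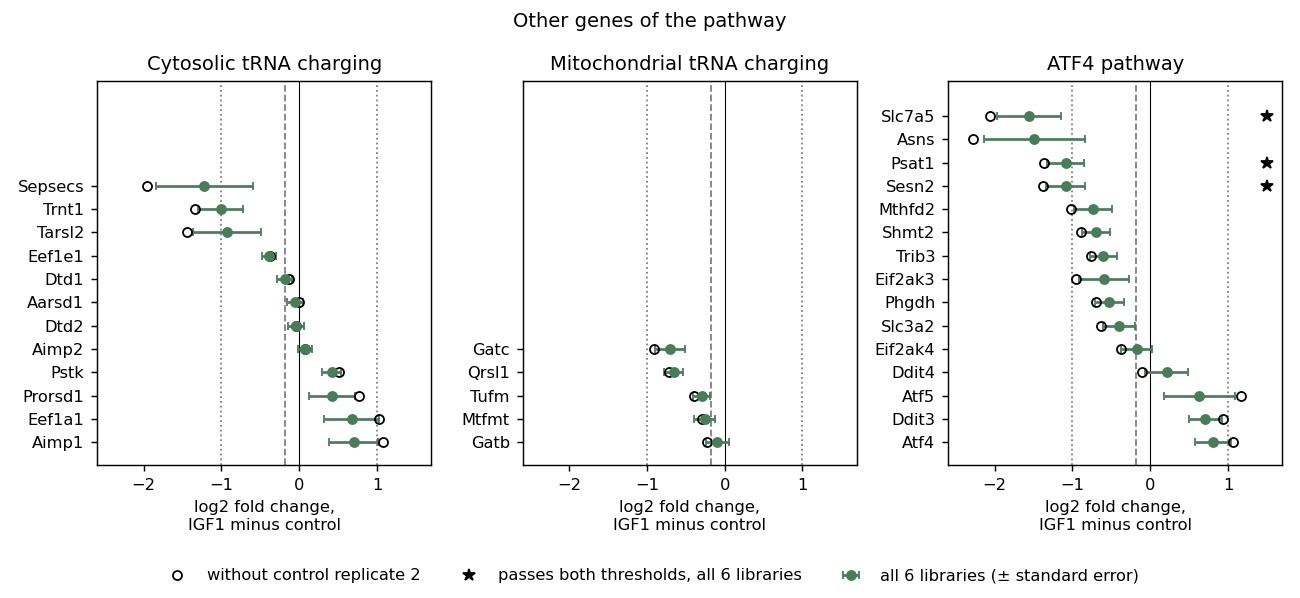
Log2 fold change (IGF1 minus control) of other genes of cytosolic tRNA charging, of mitochondrial tRNA charging and of the ATF4 pathway. Filled points are all 6 libraries with the standard error, open circles are without control replicate 2, stars mark genes past both thresholds, the dashed line is the median of all genes tested and dotted lines are at a 2-fold change. Atf4 lies above 0 at 0.81, while Slc7a5, Psat1 and Sesn2 are starred below 0.

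The other ATF4 pathway genes split. Of 17 genes 15 could be tested, 11 were below 0 and 4 above, and the median was -0.60. Under quantile normalization, 75th percentile scaling and median centring 10 were below 0, with medians of -0.46, -0.40 and -0.28. Trend removal gave 11 and -0.55. By limma 3 were called lower and 0 higher, against 5 and 2 with control replicate 2 left out. Over all genes 4.63% were called lower and 1.98% higher, and 20.5% and 12.4% without that library. Slc7a5, the light chain of the leucine transporter, had 41.5, 14.4 and 42.2 FPKM in the controls against 9.65, 9.20 and 9.05 FPKM with IGF1 (log2 fold change -1.56, adjusted p = 0.0483 from limma). Psat1, of serine synthesis, had 74.0, 40.3 and 70.5 FPKM against 27.0, 28.8 and 26.6 FPKM (-1.09, adjusted p = 0.0412). Sesn2, a leucine sensor that restrains mTORC1, had 4.77, 2.18 and 4.81 FPKM against 1.24, 1.26 and 1.2 FPKM (-1.09, adjusted p = 0.0429). In these 3 genes, as in the cytosolic synthetases other than Qars, Sars and Vars, control replicate 2 stood above the IGF1 libraries and below its own group. Their values without it were -2.06, -1.36 and -1.37.

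Asns, the asparagine synthetase and a standard ATF4 target, had 27.2, 4.45 and 26.9 FPKM in the controls against 4.67, 4.65 and 5.01 FPKM with IGF1, so that control replicate 2 was the lowest of the 6 libraries. Its log2 fold change of -1.49 had an adjusted p of 0.108 from limma, and without control replicate 2 it was called lower at -2.28. Atf4 itself was higher by value, with 75.8, 129 and 73.7 FPKM in the controls against 163, 153 and 157 FPKM with IGF1 and no overlap (log2 fold change 0.81, adjusted p = 0.0536). Ddit3, which encodes CHOP, had 6.71, 11.6 and 7.04 FPKM against 14, 13.7 and 14.5 FPKM (0.71, adjusted p = 0.0555). Leaving out control replicate 2 gave 1.07 for Atf4, then called higher, and 0.94 for Ddit3, which missed the fold. Atf4 is controlled in large part at translation, which mRNA levels do not show. Atf4 and Ddit3 were picked with their values in view.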

How the data were processed

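HSC RNA was extracted with the RNeasy Micro Kit and made into stranded mRNA libraries (TruSeq Stranded mRNA). The authors deposited a table of 21878 gene symbols for each of the 6 libraries, with 1 value per symbol. The unit is not named, and the deposited values were taken as FPKM. Values of a gene rise in whole steps, as scaled counts do, which does not tell FPKM from other scalings. The submitters' processing notes name fastp, HISAT2, StringTie and the builds GRCm38 and mm10, while the study's methods name RSEM and DESeq2 for quantification and testing. How strand was counted is not given in the sources used here. FPKM was tested on a log scale, and the reads recovered from it were used for depth and for the noise between libraries only, with no count model.

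The 4 rows that share a name with another were left out. Whole reads were recovered for 14835 of 14835 genes with a value above 0 in at least 2 libraries (tolerance 0.02 reads), and for 5.4% of 1000 genes with jittered values. The total scale of depth is approximate.

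Genes that reached 1 FPKM in 3 libraries or more were tested with limma 3.58.1 (R 4.3.3) on log2(FPKM + 1), with eBayes and a variance trend, and called past a 2-fold difference with an adjusted p (Benjamini-Hochberg) below 0.05. Fold changes on this scale understate those of low genes. The steps were tested on simulated data with changed genes of known size, with control replicate 2 like the others and like IGF1. Groups came from the treatment label. Members and lists were chosen with earlier results of these data known. By rule, values in every library are given for called members, for the 5 largest changes of each compartment and for its highest and lowest mean, and of other lists the called genes and the 2 largest changes are named. A gene of the mitochondrial charging list and a marker are not reported here.

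The alternatives were quantile normalization, 75th percentile scaling, median centring, no filter, a filter at 5 FPKM, a pseudocount of 0.1 or of 5, a fit without the variance trend, the replicate number as a block, removal of length and GC trends, and leaving out each library.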

Additional observations from a re-analysis of the deposited data

How the results depend on the processing

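The number of members called, 4 with all libraries, was 2 under quantile normalization, 2 under 75th percentile scaling, 0 under median centring, 1 with no filter, 1 with a pseudocount of 5 and 2 with the length and GC trends removed. Leaving out 1 library each gave 0 to 22 calls. The 22 came without control replicate 2, and without any other library limma called 0 members and 0 genes in all, with 14 to 16 at an unadjusted p under 0.05 and a smallest adjusted p of 0.155 to 0.169. With the replicate number as a block, 0 members and 0 genes in all were called, with 23 members at an unadjusted p under 0.05. Deviations of same-numbered libraries had correlations of -0.06, -0.05 and 0.01, so the numbers were not taken to pair the libraries, and not every library correlated best with its own number. The cytosolic median kept its sign under every alternative (-1.68 to -0.93). The mitochondrial median reached 0.01 under median centring. The cytosolic minus mitochondrial difference came to -0.65 once length and GC trends were removed and -1.22 to -0.79 when 1 library was left out. The median of all genes went from -0.18 to -0.02, 0.04, 0.14 and -0.04 under quantile normalization, 75th percentile scaling, median centring and trend removal, and the higher genes made up, in place of 30.0% of all calls, 48.8%, 53.5%, 61.1% and 50.3%. In that order of settings Sars became 0.13, 0.12, 0.20 and 0.14 and Fars2 0.11, 0.02, 0.10 and 0.09. Under the first 3, Sars2 became 0.22, 0.13 and 0.21 and Vars2 0.16, 0.19 and 0.30. Mars2 became 0.02 under quantile normalization and 0.04 under median centring, which also gave 0.05 for Vars and 0.04 for Yars2. With the trends removed Yars2 was 0.26 and Wars2 0.10. Vars2 ranged from -0.09 to 0.05 when 1 library was left out. None of these reversed genes was called, and the causes were not tested. Over all genes, calls fell from 691 to 623, 561, 429 and 304 under the same 4 settings.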
